A study of Drosophila melanogaster with 30 samples.

Results

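The libraries described here profiled trimethylated lysine 4 of histone H3 (H3K4me3) and trimethylated lysine 27 (H3K27me3) in neuroblasts of Drosophila melanogaster with RNAi against both brat and numb. They are 4 of the 16 libraries of the series with counts, 2 per mark, and were chosen by that label alone. A further 14 samples, all inputs, were not analysed here. The cells came from the brains of wandering L3 larvae and are called tumor neuroblasts in the labels. Their chromatin was cut with micrococcal nuclease, and all 4 libraries carry both knockdowns. The driver, the RNAi lines and the number of animals behind a library are not given in the sources used here.

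Neuroblasts are the neural stem cells of the fly brain. Brat represses translation of its target mRNAs and limits self-renewal. Numb antagonises Notch and is inherited unequally when a neuroblast divides. H3K4me3 is a mark of active gene starts, placed by enzymes of the Set1 and Trithorax family, and H3K27me3 is placed by Polycomb repressive complex PRC2 over silenced developmental genes. Genes that carry both marks in one cell population are often called bivalent, and in a pool of cells a gene with both marks in the same cells and a gene with one mark in each of several kinds of cell cannot be told apart.

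For each of 14284 genes, H3K4me3 was read as counts scaled to the library total (CPM) in the 501 bases from the gene start, and H3K27me3 as CPM per kb of gene model. If reads were spread evenly, each start window would hold 70.0 CPM and each gene model 11.2 CPM per kb. A gene was called marked for H3K4me3 at or above 1 time the even spread in both libraries, and marked for H3K27me3 at or above 2 times, which is 22.4 CPM per kb, in both libraries. A gene under the threshold in both libraries was called low, and one whose libraries lay on different sides was left in no class and is called split. Wherever a pair of values is given for a gene, the first is replicate 1 and the second replicate 2. H3K4me3 was measured only at the outermost start of each gene, so a low value does not cover further starts inside it.

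The H3K4me3 libraries held 3660892 reads in replicate 1 and 11141538 in replicate 2, and the H3K27me3 libraries held 16508148 and 18429668. Over 14183 genes, which are not replicates of one another, log2 levels of the 2 libraries correlated at r = 0.925 for H3K4me3 (rho = 0.880) and r = 0.941 for H3K27me3 (rho = 0.919). The H3K4me3 libraries differed in background: genes with neither mark had a median of 21.6 CPM in replicate 1 and 5.65 CPM in replicate 2, while genes with H3K4me3 only had medians of 130 and 160 CPM. Both libraries separated low from marked starts, as the plot of level distributions shows. No read in any of the 4 libraries fell on 98 genes, of which 85 lie on unplaced sequence and 13 on the mitochondrial genome.

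**Figure D1:**
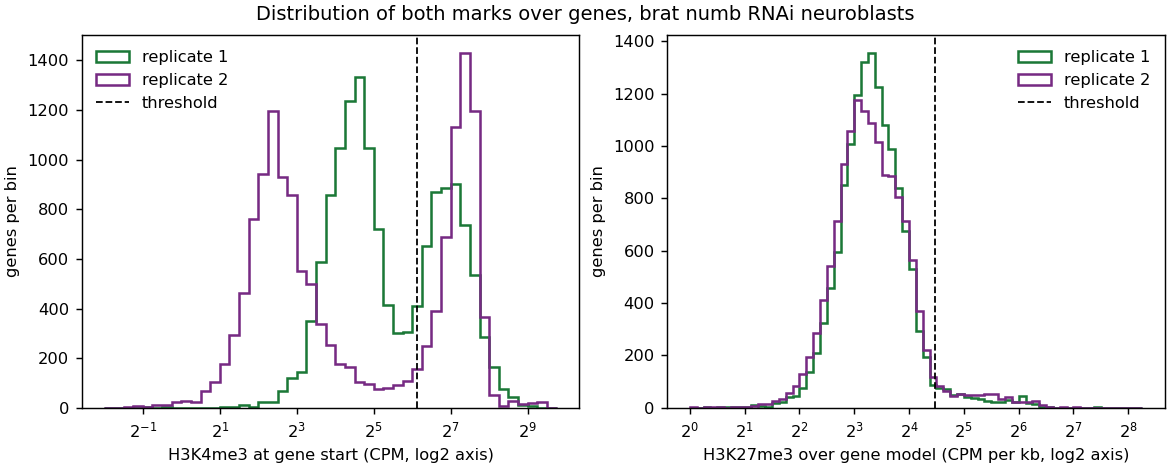
Histograms of H3K4me3 at gene starts (left, CPM, log2 axis) and of H3K27me3 over gene models (right, CPM per kb, log2 axis), as genes per bin in each brat numb RNAi library, with dashed lines at the thresholds of 70.0 CPM and 22.4 CPM per kb. H3K4me3 falls into a low and a high peak in both libraries, while H3K27me3 has 1 peak with a long shoulder of high genes.

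Most genes carried 1 mark or none, and genes with both marks were nearly all copies of the histone genes. H3K4me3 marked 5246 genes (36.7% of all) and H3K27me3 marked 566 (3.96%). In classes, 5122 genes (35.9%) had H3K4me3 only, 119 (0.833%) had both marks, 431 (3.02%) had H3K27me3 only, 7901 (55.3%) had neither, and 711 (4.98%) were split. Of the split genes, 547 were low for H3K27me3 with H3K4me3 libraries on different sides of the threshold. Genes with H3K4me3 only lay lower in H3K27me3, with medians of 8.45 and 7.99 CPM per kb, than genes with neither mark, whose medians were 11.5 and 11.5 CPM per kb. In genes with H3K27me3 only, H3K27me3 had medians of 30.5 and 37.7 CPM per kb, and H3K4me3 had medians of 21.3 and 7.72 CPM, beside 21.6 and 5.65 CPM in genes with neither mark.

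Across genes, levels of both marks ran in opposite directions. In log2 values over 14183 genes, r was -0.22 in replicate 1 and -0.32 in replicate 2 (rho = -0.34 and -0.37). Outside the histone and Stellate repeats, over 14055 genes, r was -0.33 and -0.40. The points share library depth and gene position, and no p is given for them.

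**Figure D2:**
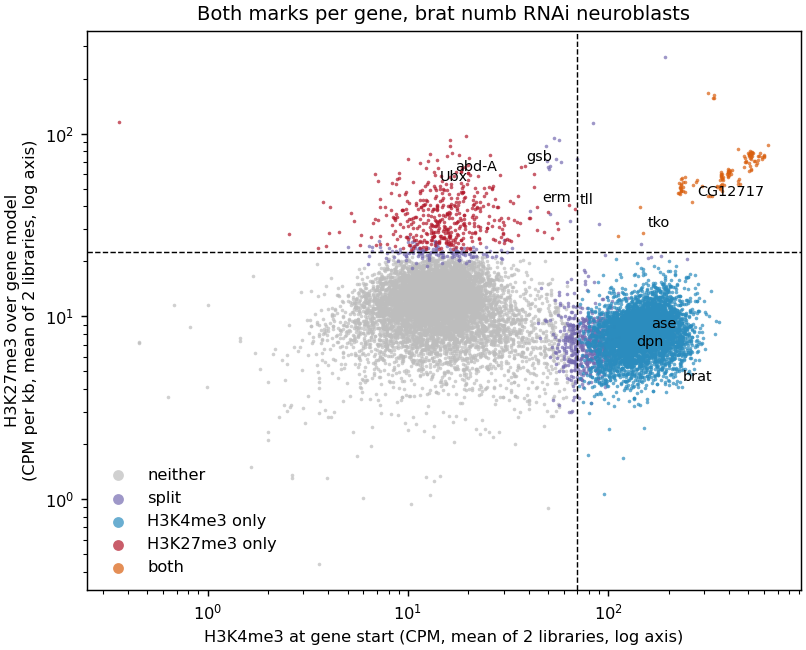
Each point is a gene, placed by its mean H3K4me3 at the start (CPM, log axis) and mean H3K27me3 over the gene model (CPM per kb, log axis) in 2 libraries each, coloured by class, with dashed lines at the thresholds. The quadrant of high H3K4me3 and high H3K27me3 holds 119 genes called for both marks, 115 of which are histone cluster genes, and dpn, ase and brat sit among the genes with H3K4me3 only.

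A test against the threshold levels called fewer H3K4me3 genes than the fixed thresholds did. Reads were set against the threshold with edgeR's quasi-likelihood test, fitted on the libraries of 1 mark with Benjamini-Hochberg adjustment over all genes. H3K27me3 was above 2 times the even spread at 528 of 14173 genes tested (3.73%) and below it at 13282 (93.7%). H3K4me3 was above the even spread at 2369 of 14068 genes (16.8%) and below it at 874 (6.21%). The H3K4me3 counts of this test move with the scaling: with library totals in place of TMM, 3879 genes were above and 101 below. Left with 1 brat numb RNAi library, in a fit that pools the spread over all groups, the test called H3K27me3 above at 149 genes without replicate 1 and 137 without replicate 2, and below at 8151 and 7402. For H3K4me3 it called 3581 above and 7584 below without replicate 1, and 1509 above and 2184 below without replicate 2.

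The RNAi targets themselves differed in H3K4me3. The start of brat (FBgn0010300, dm3, 2L: 19133806 to 19134306) held 227 and 217 CPM of H3K4me3, a log2 ratio of 1.68 to the even spread (SE 0.29, edgeR adjusted p = 1.4e-07). Its gene model held 4.68 and 3.58 CPM per kb of H3K27me3, so brat is in the class with H3K4me3 only. At numb (FBgn0002973, 2L: 9437469 to 9437969) H3K4me3 was 25.7 and 16.8 CPM and H3K27me3 was 6.52 and 5.46 CPM per kb. By these values numb was in the class with neither mark, with H3K4me3 read only at its outermost start. Histone marks at the gene do not measure an RNAi knockdown, so these values do not check the labels.

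Marker genes of neuroblasts carried H3K4me3 in 5 of 6 cases, against 36.7% of all genes. Deadpan (dpn), a Hes-family repressor that maintains neuroblasts, had 131 and 128 CPM of H3K4me3. Worniu (wor), a Snail-family neuroblast factor, had 122 and 195 CPM, and Inscuteable (insc), an adaptor of spindle orientation, had 167 and 162 CPM. Miranda (mira), which carries fate determinants to the daughter cell, had 101 and 80.2 CPM, and klumpfuss (klu), a zinc-finger self-renewal factor, had 108 and 129 CPM. Grainy head (grh) had 15.6 and 12.7 CPM at its outermost start and was in neither class of marked genes.

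The marker of type I neuroblasts was H3K4me3-marked, and those of type II lineages and their intermediate progenitors were H3K27me3-marked. Asense (ase), a proneural factor of type I neuroblasts, held 155 and 152 CPM of H3K4me3 and 7.97 and 8.21 CPM per kb of H3K27me3. The type II markers pnt, btd and Sp1 and the intermediate progenitor markers erm and ham were all in the class with H3K27me3 only. That class held 3.02% of all genes, and the class with H3K4me3 only, which holds ase, held 35.9%. Pointed (pnt), an ETS factor, had 20.5 and 10.5 CPM of H3K4me3 with 22.9 and 27.9 CPM per kb of H3K27me3, close above the threshold. Earmuff (erm), a zinc-finger factor that restricts intermediate progenitors, had 51.9 and 36.4 CPM of H3K4me3 with 35.9 and 43.0 CPM per kb of H3K27me3. The labels do not say which neuroblast lineages the cells came from.

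Most markers of other brain and body cell types had neither mark, as had 55.3% of all genes. Over all genes, H3K4me3 marked 36.7%, and 3.02% had H3K27me3 only. H3K4me3 marked 1 of 4 neuronal markers (elav, an RNA-binding protein of neurons, 144 and 150 CPM), 1 of 5 glial markers (loco, 80.9 and 115 CPM), 1 of 4 muscle markers (Mef2, 105 and 127 CPM), and none of the 4 hemocyte and 4 germline markers. Summed H3K4me3 over the 4 neuronal markers was 206 and 167 CPM, over the 5 glial markers 183 and 141 CPM, over the 4 hemocyte markers 86.6 and 19.2 CPM, over the 4 muscle markers 156 and 136 CPM and over the 4 germline markers 159 and 96.6 CPM. Over the 6 neuroblast markers, a larger number of genes, it was 644 and 707 CPM. These sums include background, since genes with neither mark had medians of 21.6 and 5.65 CPM each. The neuronal, glial and muscle sums also include the marked genes elav, loco and Mef2. The glial factor repo, the hemocyte GATA factor srp and the muscle actin Act57B were in the class with H3K27me3 only. The part of other cells in these libraries was not tested.

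The strongest Polycomb-marked genes included the developmental regulators gsb, gcm, abd-A, zen2, lbe, bap, GATAe and fd102C and the male germ-line genes kl-2 and fzo. Among H3K27me3-marked genes with models of at least 1 kb, the 20 of highest mean level held 50.8 to 135 CPM per kb in replicate 1 and 60.5 to 95.5 CPM per kb in replicate 2. Their H3K4me3 was low in both libraries, at 0.546 to 35.8 CPM in replicate 1 and 0.180 to 37.2 CPM in replicate 2. These values chose the genes and are given as a description.

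The homeobox and other regulators among them ranged closely. Gooseberry (gsb), a Pax homeodomain factor of segment polarity, held 57.6 and 74.4 CPM per kb of H3K27me3. Glial cells missing (gcm), the zinc-binding factor that starts glial fate, held 54.1 and 69.2 CPM per kb. The Hox gene abd-A held 50.98 and 65.1 CPM per kb. In each of these replicate 2 was the higher library, as it was at 19 of the 20 genes. The gene zen2, a homeobox gene of the Antennapedia complex, held 61.2 and 80.1 CPM per kb. Ladybird early (lbe), a homeobox factor of heart and muscle, held 53.6 and 66.7 CPM per kb. Bagpipe (bap), an NK homeobox factor of visceral mesoderm, held 50.8 and 67.7 CPM per kb. The endodermal GATA factor GATAe and the forkhead gene fd102C on chromosome 4 completed these regulators, at 53.8 and 69.8 CPM per kb for GATAe and 53.6 and 60.5 CPM per kb for fd102C. H3K4me3 was highest of the 20 at gsb, with 35.8 and 37.2 CPM, where both libraries stood at about the same level.

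The other genes of the 20 were of several kinds. The highest level was at kl-2, a Y-linked male fertility gene that encodes an axonemal dynein heavy chain, with 135 and 95.5 CPM per kb over a model on the Y heterochromatin assembly. At kl-2 replicate 1 was the higher library, in contrast to the other 19 genes. Its start held 0.546 and 0.180 CPM of H3K4me3, under the medians of 21.6 and 5.65 CPM in genes with neither mark. Few reads fell in that window, so its low H3K4me3 says little. No input was subtracted, and how reads with several matches were handled is not given, which limits its H3K27me3 level too. Fuzzy onions (fzo), the mitofusin of spermatids, held 78.4 and 93.1 CPM per kb. Glut3, a gene of the glucose transporter family, held 69.4 and 84.7 CPM per kb, and it lies between Ubx and abd-A. Actn3, of the alpha-actinin family, held 55.6 and 74.5 CPM per kb, and Ahcy89E, of the adenosylhomocysteinase family, held 58.9 and 72.6 CPM per kb. Both lie in the same run of marked genes as abd-A. The non-coding loci iab-4 (55.2 and 67.8 CPM per kb) and CR43617 (57.7 and 71.8 CPM per kb) are part of that run as well. The uncharacterised genes CG9235, CG7229, CG15485, CG30429 and CG11023 completed the 20, with CG9235 the highest of them at 63.4 and 92.7 CPM per kb.

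**Figure D3:**
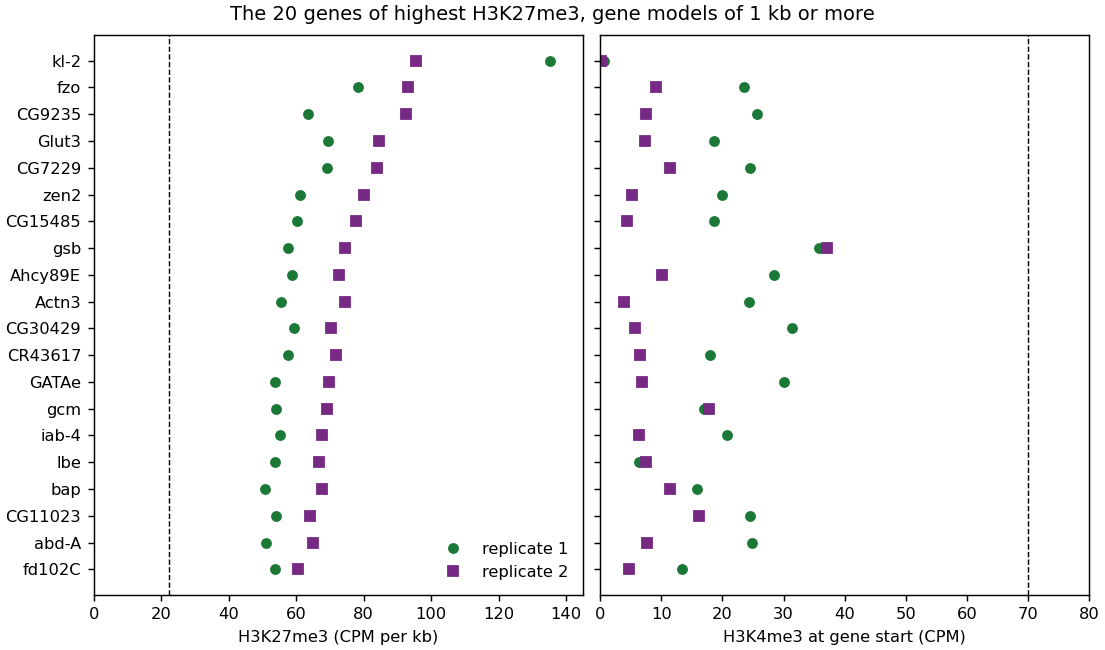
The 20 genes of highest mean H3K27me3 among marked genes with models of 1 kb or more, with H3K27me3 (left, CPM per kb) and H3K4me3 at the start (right, CPM) in each library and dashed lines at the thresholds. All points lie above 22.4 CPM per kb and below 70.0 CPM, and replicate 2 is higher than replicate 1 for H3K27me3 at 19 of 20 genes.

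The 20 genes were chosen by level, so no test against the threshold is given for them. The libraries differed at such genes: H3K27me3 was higher in replicate 2 at 401 of 438 marked genes outside repeats, with a median log2 difference of 0.29, against -0.02 over all genes. The list also depends on the length minimum, since 5 of the 20 are shared with the strongest 20 from 500 bases and 8 with the strongest 20 from 3 kb.

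Choice in one library and reading in the other gave closely matching sets. The 100 genes of highest H3K27me3 in replicate 1 had a median of 53.1 CPM per kb in replicate 2, where the median of the 11173 genes of at least 1 kb was 9.21, and 99 of the 100 reached the threshold there. The 100 chosen in replicate 2 had a median of 42.3 CPM per kb in replicate 1, against 9.61 over the same 11173 genes, and 100 of 100 reached the threshold. The 2 sets of 100 shared 84 genes.

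H3K27me3-marked genes lay in runs along the chromosomes. Outside the histone and Stellate repeats, 438 genes formed 202 runs of neighbours with no unmarked gene between, and 324 of the 438 (74.0%) lay in runs of 2 or more. Runs of 5 or more numbered 19 and held 144 genes. None of the 144 was H3K4me3-marked, where only 4 of all 438 were. Of the 38 genes that flank these runs 15 (39.5%) were H3K4me3-marked, close to the 36.7% of all genes. Gene models that overlap share reads, which applied to 107 of all 566 H3K27me3-marked genes (18.9%) and to 37.7% of all genes.

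The longest run held the bithorax complex and went on past Abd-B, with 17 genes over 334 kb from Ubx to MESK4 (dm3, 3R: 12482345 to 12816041). Its median H3K27me3 was 50.98 and 65.1 CPM per kb, and its median H3K4me3 was 20.5 and 7.27 CPM. The Hox genes Ubx, abd-A and Abd-B, which give the posterior segments their identity, held 46.4 and 56.6, 50.98 and 65.1, and 47.8 and 60.8 CPM per kb of H3K27me3. The non-coding locus tre-3 between Ubx and abd-A was the highest of the run, with 78.7 and 105 CPM per kb. MESK4 at the far end was the lowest, with 28.1 and 33.2 CPM per kb.

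The bithorax run ended differently on its sides. Next to Ubx, where H3K27me3 was 46.4 and 56.6 CPM per kb, modSP, a serine protease of the Toll pathway, had 15.6 and 18.0 CPM per kb of H3K27me3 and 24.6 and 7.09 CPM of H3K4me3, under both thresholds. The chaperonin gene Cctgamma, 3 genes beyond modSP, had 6.92 and 8.56 CPM per kb of H3K27me3 and 198 and 179 CPM of H3K4me3. On the other side H3K27me3 was 58.9 and 72.6 CPM per kb at Ahcy89E, 35.8 and 49.1 at CG18622 and 28.1 and 33.2 at MESK4. The next gene, CG3678, had 15.6 and 18.1 CPM per kb of H3K27me3 and 72.1 and 116 CPM of H3K4me3. H3K4me3 marked 6 of the 8 genes before the run and 4 of the 8 after it, against 36.7% of all genes; CG14906 and CG14907 before the run have the same values in all 4 libraries and count as 1 measurement. Beyond CG3678, CG31274 was H3K27me3-marked again, at 30.3 and 35.0 CPM per kb.

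**Figure D4:**
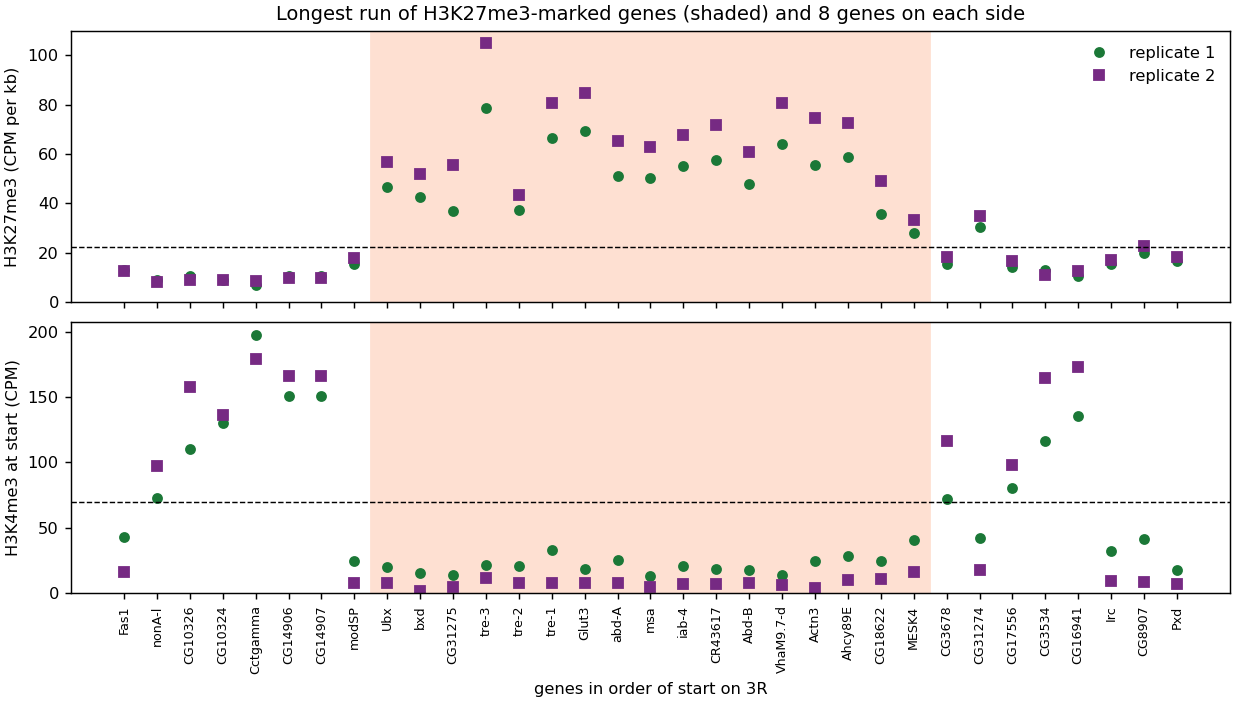
H3K27me3 (top, CPM per kb) and H3K4me3 at the start (bottom, CPM) in each library for the 17 genes from Ubx to MESK4 (shaded) and the 8 genes on each side, in order of start on chromosome arm 3R, with dashed lines at the thresholds. All 17 genes lie above 22.4 CPM per kb and under 70.0 CPM, while modSP and CG3678 at the edges lie under 22.4 CPM per kb.

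Other runs were built around further patterning genes. The run of 11 genes from CG16778 to CG33680 holds Kruppel (Kr), a zinc-finger gap gene, with 43.1 and 55.2 CPM per kb. Genes of the Antennapedia complex lay in a run of 10 genes from pb to CG42651, with zen2, zen, bcd and Dfd, in a run of 9 from Scr to CG1988, with ftz and Antp, and in a run of 2 of lab with the cuticle gene Edg84A. Runs of 9 and 8 genes held ind, a homeobox gene of the neural columns, and the Six-family eye factor Optix. A run of 8 held the homeobox genes otp, Rx and hbn together with the muscle actin gene Act57B. The first of these runs also holds genes of male seminal fluid, Sfp60F and PebII among them, and the run with Act57B holds CG9235, one of the 20 strongest. Of the 20 strongest genes 18 lay in runs of 2 or more and 6 in the bithorax run.

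Gene groups of the strongest H3K27me3 were the Hox genes and other developmental regulators. All 8 Hox genes were in the class with H3K27me3 only, against 3.02% of all genes, with medians of 45.2 and 55.3 CPM per kb beside 9.96 and 9.68 over all genes. Of 85 developmental regulators known as Polycomb targets, which are transcription factors and their partners and the secreted signals hh and wg, 66 (77.6%) were H3K27me3-marked and 65 had H3K27me3 only, against 3.96% and 3.02% of all genes. In the edgeR test 68 of the 85 lay above the H3K27me3 threshold, against 3.73% of all genes tested. The list was made of known Polycomb targets with earlier results of these data known, so these shares are a description only. Ventral veins lacking (vvl), a POU factor, and wor were the only 2 of the 85 with H3K4me3 only, and vvl held 134 and 117 CPM. A group of 11 had neither mark, ap, acj6, Lim3, bab1 and bab2 among them.

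**Figure D5:**
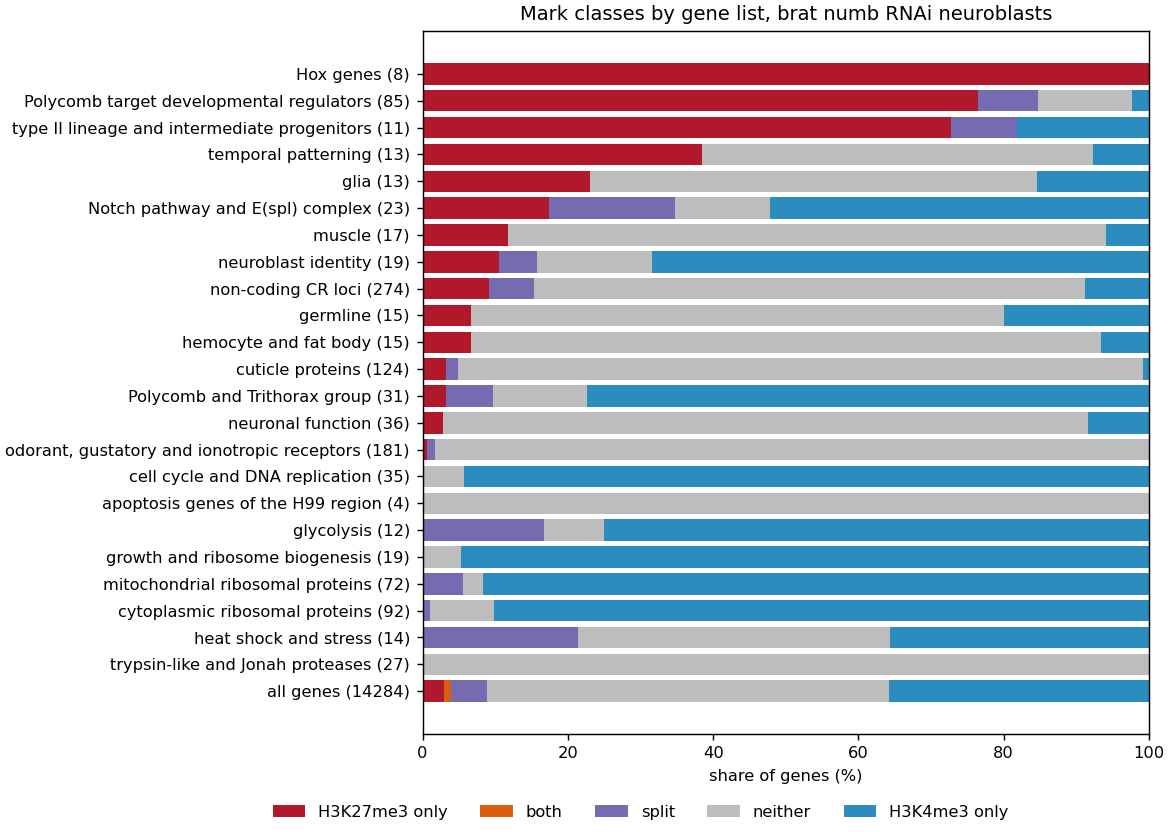
Share of genes in each class (%) by gene list, with the number of genes in brackets and all 14284 genes at the bottom. Hox genes (8 of 8) and Polycomb-target developmental regulators (65 of 85) are mostly H3K27me3 only, cell cycle genes (33 of 35) are mostly H3K4me3 only, and proteases (27 of 27) carry neither mark.

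Genes of neuroblast lineages fell on both sides. Of 19 neuroblast identity genes, 13 had H3K4me3 only and 2 had H3K27me3 only, against 35.9% and 3.02% of all genes. Those with H3K27me3 were the SoxB gene D, at 23.2 and 32.6 CPM per kb, and tailless (tll), a nuclear receptor, at 34.2 and 42.7 CPM per kb. Prospero (pros), a homeodomain factor that ends self-renewal in daughter cells, was in the class with neither mark. It had 4.64 and 0.449 CPM of H3K4me3 at its outermost start and 8.86 and 9.01 CPM per kb of H3K27me3. Its H3K4me3 lay under the medians of 21.6 and 5.65 CPM in genes with neither mark, and any further starts were not measured. Of 11 genes of type II lineages and intermediate progenitors, 8 had H3K27me3 only, and the growth regulator Myc (dm) and the chromatin remodeller subunit osa had H3K4me3 only. Odd-paired (opa), an intermediate progenitor temporal factor, held 41.8 and 53.2 CPM per kb of H3K27me3, and ey was split at 19.2 and 23.5 CPM per kb.

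H3K27me3 marked 5 of 13 temporal patterning genes, against 3.96% of all genes. The embryonic factors hb, Kr, nub, pdm2 and cas, which order the fates of embryonic neuroblast progeny, had H3K27me3 only. They ranged from cas at 24.9 and 27.8 CPM per kb to Kr at 43.1 and 55.2 CPM per kb. The gene grh, which was not on this list, had neither mark, at 5.99 and 4.59 CPM per kb of H3K27me3. The gene chinmo, a factor of early-born larval fates, was the only 1 of 13 with H3K4me3 only, at 107 and 124 CPM. The other 7, with svp, Imp, br, Eip93F and EcR among them, had neither mark at the start measured. Several of these genes have long models with further starts, which were not measured. Over all genes, 3.02% had H3K27me3 only, 35.9% had H3K4me3 only and 55.3% had neither mark.

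The Notch pathway held 12 of 23 genes with H3K4me3 only and 4 with H3K27me3 only, against 35.9% and 3.02% of all genes. The receptor N had 126 and 119 CPM of H3K4me3, and its ligand Delta (Dl) had 154 and 186 CPM. The ligand Serrate (Ser) had 34.1 and 14.99 CPM of H3K4me3 and was in the class with H3K27me3 only, at 26.2 and 32.6 CPM per kb. The DNA-binding factor Su(H) had 236 and 184 CPM of H3K4me3, the corepressor partner Hairless (H) 225 and 206 CPM, and groucho (gro) 193 and 208 CPM. Within the Enhancer of split complex, whose genes are Notch targets, HLHmgamma (71.3 and 126 CPM) and HLHmbeta (85.5 and 143 CPM) had H3K4me3 only. HLHm5, m4 and m6 of the same complex had H3K27me3 only, and HLHm3, HLHm7, m1 and m2 were split, each with replicate 2 above the H3K27me3 threshold and replicate 1 under it.

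Genes of growth and division carried H3K4me3. Of 35 cell cycle and DNA replication genes, 33 (94.3%) had H3K4me3 only, against 35.9% of all genes, with CycA at 323 and 201 CPM and mad2, a spindle checkpoint gene, at 325 and 272 CPM. The exceptions were string (stg), the Cdc25 phosphatase, with 51.6 and 44.3 CPM, and the Cdk inhibitor dacapo (dap), with 59.5 and 39.1 CPM, against a threshold of 70.0 CPM. Of 19 growth and ribosome biogenesis genes 18 had H3K4me3 only, as had 83 of 92 cytoplasmic ribosomal proteins, 66 of 72 mitochondrial ribosomal proteins and 9 of 12 glycolysis genes. None of the listed genes of these 5 groups was H3K27me3-marked, against 3.96% of all genes. The list of mitochondrial ribosomal proteins held only genes named mRpL or mRpS. It left out tko, a mitochondrial ribosomal protein gene that was H3K27me3-marked, at 25.7 and 31.7 CPM per kb. Over all genes the highest H3K4me3 in the class with H3K4me3 only was at uex, of a family of magnesium transporters (476 and 242 CPM), and at the superoxide dismutase gene Sod (447 and 239 CPM), both with replicate 1 the higher.

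The Polycomb and Trithorax genes themselves were mostly of the class with H3K4me3 only, at 24 of 31, against 35.9% of all genes. Among writers and readers of the mark, E(z), the H3K27 methyltransferase of PRC2, had 115 and 114 CPM of H3K4me3, and Pc, the chromodomain protein that binds H3K27me3, had 185 and 187 CPM. The H3K27 demethylase gene Utx had 271 and 193 CPM. Su(z)2, a homologue of the PRC1 gene Psc, was the 1 of the 31 with H3K27me3 only, at 29.6 and 37.6 CPM per kb with 32.2 and 21.5 CPM of H3K4me3. The PRC1 genes Psc (82.5 and 52.1 CPM) and Sce (60.6 and 102 CPM) were split for H3K4me3, and jing, pho, Trl and Set1 had neither mark at the start measured.

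Genes of differentiated cells were mainly without either mark. Of 36 genes of neuronal function 32 had neither mark, and Syx1A, elav and Csp had H3K4me3 only. Appl, the fly homologue of the amyloid precursor protein, was the 1 with H3K27me3 only, at 22.9 and 26.9 CPM per kb. Of 13 glial genes 3 had H3K27me3 only (repo, gcm and gcm2) and 8 had neither mark. Neither mark was found at 13 of 15 hemocyte and fat body genes, 14 of 17 muscle genes, 11 of 15 germline genes and 4 of 4 apoptosis genes of the H99 region (W, rpr, grim and skl), against 55.3% of all genes. In the largest families, 178 of 181 odorant, gustatory and ionotropic receptors, 117 of 124 cuticle proteins and 27 of 27 trypsin-like and Jonah proteases had neither mark. H3K27me3 marked 1 of the 181 receptors, 4 of the 124 cuticle proteins (3.23%) and none of the proteases, against 3.96% of all genes. The receptor gene Or85a held 37.1 and 42.1 CPM per kb and the cuticle gene Edg84A 44.5 and 55.7 CPM per kb. Of 274 non-coding CR loci 25 (9.12%) had H3K27me3 only, against 3.02% of all genes, and CR43705 was the highest of them at 66.4 and 85.7 CPM per kb. Of 14 heat shock and stress genes 5 (35.7%) had H3K4me3 only, against 35.9% of all genes, 6 had neither mark and 3 were split.

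Genes with both marks were 115 histone cluster genes and 4 others. The histone cluster (dm3, 2L: 21417078 to 21541620) is a tandem array of near-identical copies of the replication-dependent histone genes, with 23 His1, 20 His2A, 23 His2B, 23 His3 and 22 His4 genes and 4 copies of snmRNA:430. All 115 had both marks. Their H3K4me3 ranged from 266 to 644 CPM in replicate 1 and from 176 to 635 CPM in replicate 2, and their H3K27me3 from 48.0 to 197 and from 40.0 to 154 CPM per kb. The upper ends of H3K27me3 came from the 4 copies of snmRNA:430, whose gene models span only 36 bases. The histone genes themselves reached at most 91.8 and 87.4 CPM per kb. Reads of such copies cannot be assigned to 1 of them, no input was subtracted, and how reads with several matches were handled is not given in the sources used here. The marks of a single histone gene therefore cannot be read from these values.

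The Stellate repeats on the X chromosome, near-identical genes that encode a protein related to a casein kinase subunit, were H3K27me3-marked at 13 of 13 genes. Their H3K27me3 medians were 71.0 and 69.2 CPM per kb, with the same limit on repeat copies. Their H3K4me3 medians were 85.5 CPM in replicate 1 and 17.6 CPM in replicate 2, on different sides of the threshold, and 11 of the 13 were split.

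Outside these repeats 4 of 438 H3K27me3-marked genes were also H3K4me3-marked, against 5122 of the 13570 genes low for H3K27me3 (95% of all genes). Read from 1 library per mark, 10 genes outside repeats had both marks without replicate 1 and 9 without replicate 2. CG12717 on the X chromosome had 346 and 176 CPM of H3K4me3 and 46.6 and 38.0 CPM per kb of H3K27me3. CG32708, also on the X chromosome, had 135 and 152 CPM and 40.0 and 39.0 CPM per kb. Technical knockout (tko), an X-linked gene for a mitochondrial ribosomal protein, had 150 and 146 CPM and 25.7 and 31.7 CPM per kb. CG5500 on 3R was the closest to the thresholds, with 96.7 and 126 CPM and 24.2 and 30.9 CPM per kb.

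With H3K4me3 at 0.5 times the even spread or more in both libraries, 17 of the 438 H3K27me3-marked genes (3.88%) qualified, against 5875 of 13570 H3K27me3-low genes (43.3%). They include 8 of 74 marked genes on the lists of Hox genes and developmental regulators (10.8%) and 9 of the 364 others (2.47%). Tailless (tll) stood just under the H3K4me3 threshold in both libraries, with 66.1 and 69.6 CPM. The pair-rule forkhead genes slp1 and slp2 had 57.9 and 69.7 CPM and 71.3 and 57.0 CPM. Antp was the 1 Hox gene of the 17, with 57.6 and 42.4 CPM, where the other 7 Hox genes reached at most 24.9 CPM in replicate 1 and 11.7 CPM in replicate 2. Further regulators among the 17 were the eye factors toy (63.1 and 47.7 CPM) and eya (53.0 and 43.1 CPM), the zinc-finger gene tsh (48.3 and 64.4 CPM), erm, gsb and gsb-n. At the listed regulators the median H3K4me3 was 21.9 and 12.97 CPM, beside 21.6 and 7.27 CPM at the other marked genes: the medians differ in replicate 2, the library with the lower background, and lie close together in replicate 1.

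The share of marked genes by chromosome is a description with no test. Without repeats, H3K27me3 marked 1.72% of genes on the X chromosome, 2.92% on chromosome 2, 3.75% on chromosome 3, 3.53% on chromosome 4 (3 of 85 genes) and 5.26% on the heterochromatin assemblies (4 of 76 genes). H3K4me3 marked 18.8% of the 85 genes on chromosome 4, 19.7% of those on the heterochromatin assemblies and 34.6%, 36.6% and 37.6% on X, 2 and 3. With repeats included, 9.64% of genes on X were split, against 4.11% on 2, 4.10% on 3, 7.06% on 4 and 7.89% on the heterochromatin assemblies. The lower shares of marked genes on X were not tested. At the edge of the H3K4me3 call, me31B lay just inside with 70.2 and 79.7 CPM, and CG7420 just outside with 69.9 and 104 CPM. At the edge of the H3K27me3 call, CG15418 lay just inside with 24.3 and 22.4 CPM per kb, and so, a Six-family eye factor, just outside with 22.4 and 29.9 CPM per kb.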

How the data were processed

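Per the labels, brain cells of wandering larvae were profiled by ChIP of MNase-treated chromatin. The deposited values are a raw count of reads per gene and library, H3K4me3 in 501 bases from the gene start and H3K27me3 over the gene model, without input subtraction. The submitters' processing notes name build dm3 and, as tools, bedtools 2.25.0, Bowtie2 2.2.4 and deepTools 2.5.0.1, and how reads were counted is not given in the sources used here. Counts were scaled to library totals of 3660892 to 18429668 reads. In R 4.3.3, edgeR 4.0.16 (quasi-likelihood, TMM scaling, default filter, threshold 0.05) tested each gene's reads against the threshold level with an intercept-only model, which compares with no other group; the SE is the absolute log2 ratio divided by the square root of F. DESeq2 1.42.0 was an alternative. Statistical code was tested on simulated data.

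Replicates carry the SBa codes 67 and 68, whose meaning is not stated. Nothing says that libraries came from separate animals, so p values measure only the spread between libraries, and because edgeR shares the spread across genes they hardly reflect that of a single gene. Members and gene lists were chosen with earlier results of these data known, and the repeat families were set apart after their values were seen. Of 388 list entries 378 matched. Genes named by rule were brat, numb, the 20 strongest H3K27me3-marked genes, the strongest of the class with both marks and of the class with H3K4me3 only, up to 4 members per list by their prevailing mark, and those at the thresholds; the class with both marks outside repeats, markers and other list members were named after their values were seen.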

Additional observations from a re-analysis of the deposited data

How the results depend on the processing

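Counts of classes depended on the thresholds. Genes with both marks are counted here outside the histone and Stellate repeats unless stated. With H3K4me3 at 0.5 times the even spread, 1072 genes were split and 17 had both marks. At 2 times, 1889 had H3K4me3 only, 2114 were split, 2009 were H3K4me3-marked and 2 had both. With H3K27me3 at 1.5 times, 991 had H3K27me3 only, 1300 were split, 1140 were H3K27me3-marked and 16 had both; at 3 times, 168 had H3K27me3 only, 298 were marked and 2 had both. With crossings of a Gaussian mixture at 51.04 CPM and 18.1 CPM per kb, a rule set after a first form gave no crossing, 704 had H3K27me3 only, 865 were marked and 15 had both. Split genes numbered 1091 with TMM scaling and 1827 with DESeq2 size factors. Genes that overlap no other left 2896 with H3K4me3 only, 5112 with neither, 413 split and 3008 H3K4me3-marked, among fewer genes. Leaving out 1 replicate gave 9 to 10 genes with both marks outside histone and Stellate repeats. Lowering the H3K4me3 threshold to 0.5 times in replicate 2 alone, chosen after seeing the data, gave 24.

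The edgeR count of genes above the H3K4me3 level (2369) was 3879 with library totals, 1308 with DESeq2 size factors, 3938 by the DESeq2 Wald test, 4046 with all 8 libraries of the mark and 1509 to 3581 with 1 replicate left out. Genes below it (874) numbered 101, 4813, 7890, 7743 and 2184 to 7584 in the same settings. For H3K27me3, 228 genes lay above with all 8 libraries, and 137 to 149 above and 7402 to 8151 below with 1 replicate left out, in a fit that pools the spread over groups. The H3K27me3 log2 ratio of so was 0.23 with both libraries and ranged from -0.00022 to 0.42 with 1 left out, and the H3K4me3 log2 ratio of CG7420 was 0.37 and ranged from -0.0017 to 0.57. The class, mark and edgeR counts not given under a setting lay within 1.5 times of those reported. Causes were not tested. Runs of 5 or more were 24 with 1 unmarked gene allowed, against 19. Promoter motifs were not analysed here. No paired analysis was possible because no groups were tested against each other. The depth of 3660892 reads limits H3K4me3 in replicate 1.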
